A study of Mus musculus with 12 samples.

Results

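The genes described here are the collagens of the dorsal raphe nucleus (DR), the midbrain group of serotonergic neurons, in mice bred for a deletion of both Stat3 alleles in serotonergic cells and in their controls. A gene was taken as a collagen where its symbol is Col, a number, the letter a and a number, and where its reads over the 12 libraries summed to at least 30. All 44 such symbols among the 24421 listed genes met that minimum, and Col10a1, with 35 reads in all, was the member nearest to it. They were sorted into 11 fibrillar collagens, 8 of the basement membrane and 25 others (6 beaded-filament chains of collagen VI, 9 FACIT collagens, which sit on the surface of fibrils, 4 transmembrane collagens and 6 network-forming, anchoring and remaining members).

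Bulk RNA of DR tissue was sequenced from 4 control mice (Sert Cre/+; Stat3 fl/+) and 8 STAT3 KO mice (Sert Cre/+; Stat3 fl/fl), 1 library per animal, on a mixed C57BL/6 and 129 background, with 2 female controls, 2 male controls, 4 female and 4 male KO animals, from a cohort that entered testing at 8 to 16 weeks of age. Control littermates thus carried the Cre driver and 1 floxed Stat3 allele as well. Cre was expressed from Slc6a4 (Sert), the serotonin transporter gene, so that the deletion concerns serotonergic cells, whereas the dissected piece also held glia, vessels and other neurons. Gene counts per library ran from 24379588 to 29645210, of which collagens took 0.0523% to 0.0728%. Stat3 itself, counted over the whole gene and so without sight of the deleted exons alone, had 64.7 to 67.9 CPM in controls (its reads set against the TMM-scaled total of all genes in the library) and 62.7 to 70.1 CPM in KO mice (log2 fold change -0.01 ± 0.04 SE, adjusted p = 0.992, edgeR's quasi-likelihood test), which does not separate the genotypes. Tph2, the enzyme that starts serotonin synthesis, was at 548 to 800 CPM in controls and 540 to 879 CPM in KO mice, so that serotonergic markers were present in each library.

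Collagens are secreted or membrane-bound proteins in which chains wind around one another into a rope-like helix. In the brain the collagen IV chains, with laminins, nidogens and perlecan, build the basement membrane under the endothelium of every vessel and under the pia. Fibrillar collagens such as I and III come mainly from fibroblasts of the meninges and the perivascular space, and several of the remaining collagens are made by neurons or glia. A level measured in bulk tissue joins these sources, and fewer cells of a type cannot be told apart from less RNA per cell.

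Sequences at the starts of 4 collagens are given first. The collagen IV chains Col4a1 (chr8:11198423-11312826, minus strand) and Col4a2 (chr8:11312805-11449287, plus strand) lie head to head on GRCm38 and are read in opposite directions, and overlap by 22 bases at their starts, which are shown because both genes begin there.
Col4a1 and Col4a2, chr8:11312805-11312826, plus strand: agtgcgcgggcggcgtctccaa
Col6a5 (chr9:105856078-105960643, minus strand) is the collagen whose levels differed most between the genotypes. The 250 bases before its start (chr9:105960644-105960893, minus strand, 58.8% G and C) are shown because they hold a match to TTCNNNGAA, the palindromic letters bound by STAT proteins, given in capitals.
Col6a5: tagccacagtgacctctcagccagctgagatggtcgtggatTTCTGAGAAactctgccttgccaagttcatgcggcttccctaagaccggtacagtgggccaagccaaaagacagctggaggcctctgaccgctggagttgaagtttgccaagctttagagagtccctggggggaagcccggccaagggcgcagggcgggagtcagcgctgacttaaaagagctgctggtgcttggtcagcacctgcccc
The only other collagen with such a match was Col28a1, at chr6:8192703-8192731 on the minus strand, shown with 10 bases on each side of the match.
Col28a1: accctccctcTTCAGAGAAacttgttgaa
The windows ran from 250 bases before to 50 bases after the RefSeq start on GRCm38.p6, and 35 of the 44 collagens had an entry. The letters occurred in 2 of these 35 windows (5.71%) and in 2582 of the 27025 windows of all genes (9.55%), so that the collagens did not hold them more often. Col28a1 had a log2 fold change of -0.11 ± 0.20 SE (adjusted p = 0.949, edgeR), with levels of 1.01 to 2.18 CPM in controls and 1.28 to 2.01 CPM in KO mice.

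To see which collagens this tissue holds, levels were set per kilobase of exon (CPM per kb, GENCODE vM21), to compare genes of unequal length. The length joins the exons of all annotated transcripts, as in 12.4 kb for Col1a2 and 6.56 kb for Col1a1. Where the expressed transcripts are shorter than that, the scale sets a gene too low. The vessel chains Col4a2 (mean of 12 animals 12.1 CPM per kb) and Col4a1 (7.08 CPM per kb) were among the leading genes in that order. Between them stood Col25a1, a transmembrane collagen of neurons, at 8.27 CPM per kb, and Col16a1, a FACIT collagen, at 7.15 CPM per kb. Then followed the collagen IX chains Col9a2 (5.10 CPM per kb) and Col9a3 (4.89 CPM per kb) and the fibrillar collagen XI chains Col11a2 (4.68 CPM per kb) and Col11a1 (4.63 CPM per kb), whose means lie within each other's spread between animals (SD in KO mice 0.794 CPM per kb for Col9a2 and 0.562 CPM per kb for Col9a3). The collagens of fibroblasts were far lower, with Col1a2 at 0.834, Col1a1 at 0.733 and Col3a1 at 0.486 CPM per kb. At the foot of the order were Col17a1, a collagen of epithelial anchoring junctions, at 0.0594 CPM per kb, and Col10a1, a collagen of growth cartilage, at 0.0337 CPM per kb.

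**Figure D1:**
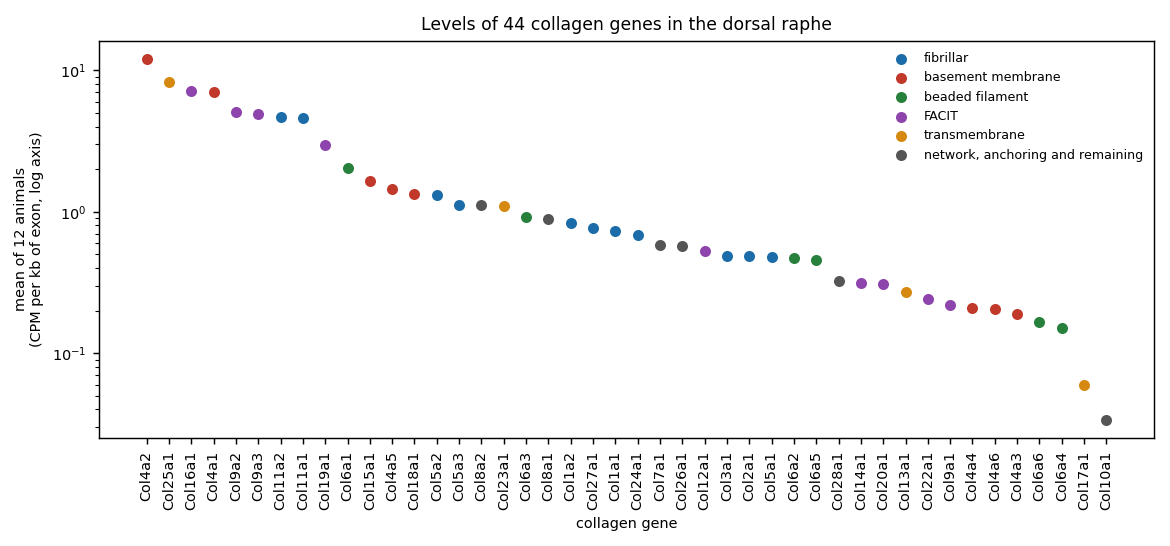
Mean level of each of the 44 collagens over 12 animals in CPM per kb of exon (log axis), ordered from high to low and coloured by class. Col4a2 leads at 12.1 CPM per kb and Col10a1 is last at 0.0337 CPM per kb.

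The question put to the collagens was whether any of them differed between KO and control mice. Of the 43 collagens that passed the filter on low counts (all but Col10a1), 30 had a higher and 13 a lower mean in KO mice, and 0 had an adjusted p under 0.05 in edgeR's quasi-likelihood test (smallest adjusted p 0.615), where 0 of 15453 genes tested (0%) had one. An unadjusted p under 0.05 was found for 7 of 43 collagens (16.3%), 6 higher and 1 lower, against 7.66% of all genes tested (3.61% higher and 4.05% lower). DESeq2's Wald test, run on the same counts, gave 0 collagens with an adjusted p under 0.05 and 6 with an unadjusted one (13.6%), where 0.03% of all genes had an adjusted and 6.21% an unadjusted p under 0.05. The median log2 fold change was 0.13 over the 43 collagens and -0.0011 over all genes tested, and 69.8% of the collagens but 49.4% of all genes had a log2 fold change above 0 (76.7% and 61.1% without a scaling factor). Those shares are descriptions: collagens share cells of origin and animals, and so do not vary independently.

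**Figure D2:**
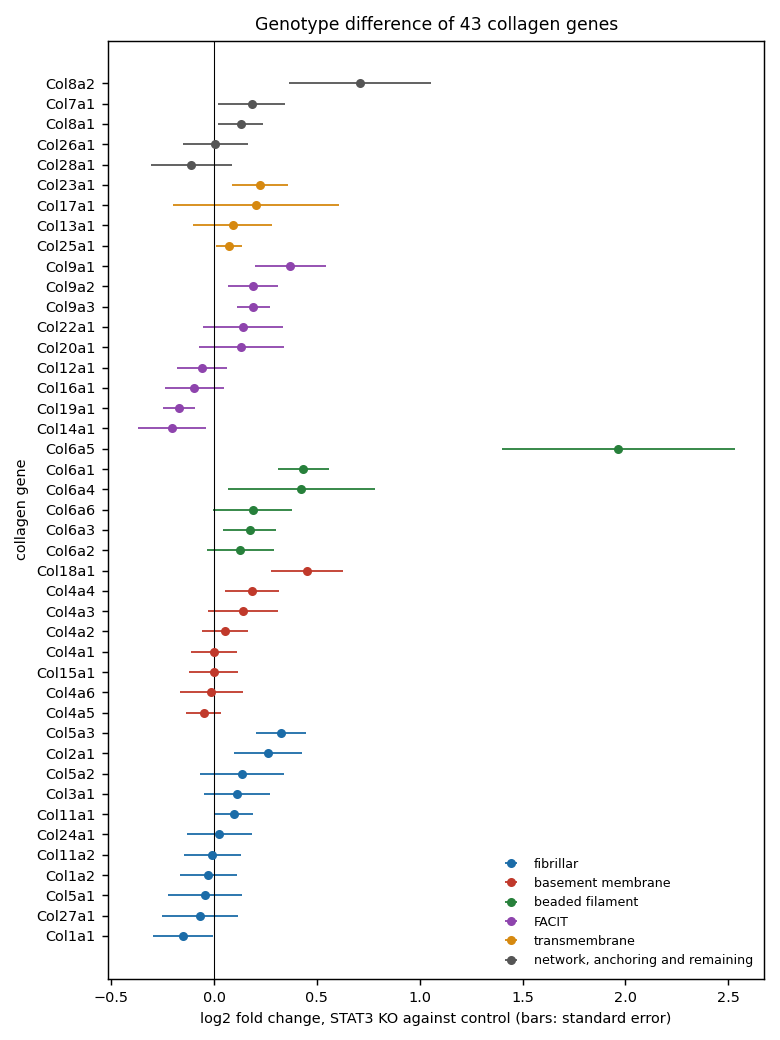
Log2 fold change of STAT3 KO against control for 43 collagens, grouped and coloured by class, with bars for the standard error. Col6a5 stands apart at 1.97, and all 6 collagen VI chains lie to the right of 0.

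The collagen VI chains, which form beaded filaments around cells and next to basement membranes, were the class with the highest median (log2 fold change 0.31, or 0.16 without KO 5). All 6 were higher on average in KO mice, under each of the 3 scalings tried (TMM, RLE and none). An unadjusted p under 0.05 was found for 2 of 6, where 7.66% of all genes tested had one. Col6a5 was at 0.989 CPM in control 13, 1.12 in control 3, 1.54 in control 11 and 2.14 in control 4. In the 8 KO mice it ran from 2.47 CPM through a median of 2.69 to 12.5 CPM, so that each KO animal was above each control. The KO animals themselves were not alike: KO 14, KO 10 and KO 7 were at 12.5, 10.6 and 9.73 CPM, whereas the other 5 lay between 2.47 and 2.81 CPM, close above the highest control. In reads, those 5 animals had 70 to 79 and the highest control 59. The log2 fold change was 1.97 ± 0.56 SE (95% interval 0.86 to 3.07, adjusted p = 0.615, edgeR) and the two-sided exact permutation p over the 495 ways to choose the controls was 0.0162, not adjusted for the number of genes, where 0.00202 is the smallest p it can give and 7.1% of all genes had a p under 0.05. Without control 4 the log2 fold change was 2.22, and without KO 14 it was 1.70.

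Col6a1 (chr10:76708792-76726168, minus strand), the chain that every classical collagen VI molecule contains, was the other collagen whose groups did not overlap. It was at 6.55 CPM in control 11, 7.17 in control 3, 7.34 in control 13 and 7.92 in control 4, and at 7.99 to 12.8 CPM in KO mice (median 9.56). The lowest KO animals, KO 8 and KO 6, were barely above control 4. The log2 fold change was 0.43 ± 0.12 SE (95% interval 0.19 to 0.68, adjusted p = 0.615, edgeR), and the exact permutation p (two-sided) was 0.0101. Groups with each KO animal above each control occurred for 2 of 43 collagens (4.65%) and for 0.207% of all genes tested, and the reverse for 0 collagens and 0.239% of all genes. Without the scaling factor the collagens numbered 2 and 0 again, and the shares of all genes were 0.362% and 0.129%.

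The partner chains overlapped between the genotypes. Col6a2, which lies beside Col6a1 on chromosome 10, was at 3.05 to 4.22 CPM in controls and 3.17 to 5.37 CPM in KO mice (log2 fold change 0.13 ± 0.16 SE, or 0.05 without control 13). Col6a3, the long chain of the same molecule, was at 7.51 to 11.7 CPM and 8.96 to 13.7 CPM (0.17 ± 0.13 SE, or 0.05 without control 3). Col6a4 and Col6a6, chains that can stand in for Col6a3, flank Col6a5 on chromosome 9. Col6a4 was at 0.763 to 1.32 CPM in controls and 0.611 to 3.06 CPM in KO mice (log2 fold change 0.42 ± 0.36 SE), and Col6a6 at 1.19 to 1.57 CPM and 1.16 to 2.19 CPM (0.19 ± 0.19 SE). Neither followed Col6a5 over the animals, since both were highest in KO 5, an animal with 2.47 CPM of Col6a5. As a description over 12 animals, Pearson's r with Col6a5 was 0.02 for Col6a4 and 0.00 for Col6a6, and r between Col6a4 and Col6a6 was 0.83. Over the same animals the genes most like Col6a5 in log2 CPM were Pi15 (r = 0.94), Scml4 (0.92), March4 (0.90), Fam149a (0.89) and Ccdc3 (0.89), none of them a collagen.

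**Figure D3:**
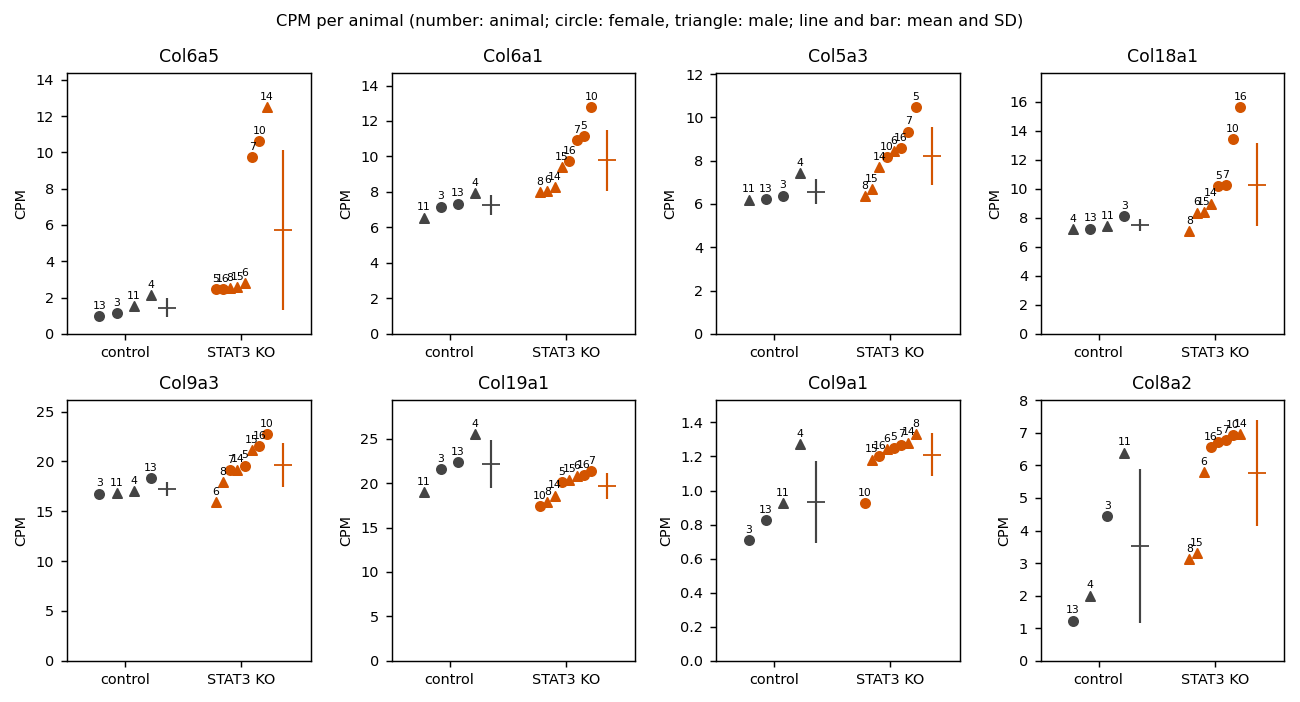
CPM per animal of the 7 collagens with an unadjusted p under 0.05 and of Col8a2, with animal numbers, circles for females, triangles for males, and the mean and SD at the right of each group. Col6a5 and Col6a1 are the panels in which all 8 KO animals lie above all 4 controls.

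In the basement membrane class 5 of 8 members were higher and 3 lower on average, with a median log2 fold change of 0.03 (-0.0026 without KO 5). Without a scaling factor 7 were higher and 1 lower, where 61.1% of all genes were higher. The main vessel chains were close in both genotypes: Col4a1 was at 52.8 ± 3.50 CPM in controls (SD, n = 4) and 52.8 ± 9.13 CPM in KO mice (SD, n = 8), with a log2 fold change of 0.00 ± 0.11 SE (95% interval -0.22 to 0.22). Col4a2 was at 78.1 ± 8.38 CPM and 80.9 ± 13.6 CPM (log2 fold change 0.05 ± 0.11 SE, 95% interval -0.17 to 0.27). The ratio of Col4a2 to Col4a1 in CPM stayed between 1.34 and 1.69 in the 12 animals, and their log2 CPM had an r of 0.88. Col4a3 and Col4a4, chains best known from the kidney filter, were at 1.35 to 2.47 CPM and 1.58 to 2.64 CPM over all animals. Col4a5 and Col4a6, X-linked neighbours, did not move together (r = -0.03), and Col4a5 had a log2 fold change of -0.05 ± 0.09 SE.

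Col18a1 (chr10:77052178-77166548, minus strand), which carries endostatin at its end, was the member of this class with the largest difference. Controls 4, 13, 11 and 3 had 7.23, 7.25, 7.44 and 8.11 CPM, and KO mice 7.09 to 15.6 CPM (median 9.56), with 7 of 8 above every control and KO 8 below all of them. The log2 fold change was 0.45 ± 0.18 SE (adjusted p = 0.615, edgeR; two-sided exact permutation p = 0.0586). KO 16 and KO 10 held the highest values, 15.6 and 13.4 CPM. The genes most like Col18a1 over the 12 animals included Calb1 (r = 0.95), Ppp1r17 (0.92) and En2 (0.92), genes of the cerebellum, which lies close behind the DR. A list of 7 Purkinje cell genes, drawn up after these values were seen, summed to 630 CPM in KO 16 and 436 CPM in KO 10, and to 186 to 281 CPM in the 4 controls and 189 to 281 CPM in the other KO animals. Pcp2, which is nearly particular to Purkinje cells in brain, was at 0.0675 CPM in the lowest animal and 34.1 CPM in the highest. With KO 10 and KO 16 left out, the log2 fold change of Col18a1 was 0.24 (unadjusted p = 0.0388). The list holds Calb1 and Ppp1r17, so that a high r with Col18a1 over 12 animals was favoured by its choice. That r was 0.89, and it was 0.47 without KO 10 and KO 16, so that the relation rests on those animals. With the sum of ependymal cilia genes given further on, Col18a1 had an r of 0.62 and a rho of 0.77, and an r of 0.54 without controls 13 and 4. The part of either tissue in the genotype difference was not tested.

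Among the fibrillar collagens 6 of 11 were higher and 5 lower on average, and the median was 0.03 (-0.05 without KO 7). The chains of meningeal and perivascular fibroblasts lay within the spread of the animals. Col1a1 was at 4.82, 5.12, 5.31 and 5.36 CPM in controls 3, 11, 4 and 13 and at 3.06 to 5.88 CPM in KO mice (median 5.03), a log2 fold change of -0.15 ± 0.15 SE. Col1a2, its partner in collagen I, was at 8.05 to 12.4 CPM and 7.19 to 11.9 CPM (-0.03 ± 0.14 SE), and Col3a1 at 3.82 to 6.42 CPM and 3.78 to 5.98 CPM (0.11 ± 0.16 SE). Col11a1, the most counted fibrillar chain, was at 45.5 to 61.0 CPM in controls and 50.8 to 70.6 CPM in KO mice (0.10 ± 0.09 SE, or 0.01 without control 11). Col5a3, a chain of collagen V that helps set fibril diameter, was the fibrillar member with an unadjusted p under 0.05. It was at 6.20, 6.22, 6.39 and 7.42 CPM in controls 11, 13, 3 and 4 and at 6.37 to 10.5 CPM in KO mice (median 8.29), with 6 of 8 above every control. Its log2 fold change was 0.32 ± 0.12 SE (95% interval 0.09 to 0.56, adjusted p = 0.615, edgeR), and the exact permutation p (two-sided) was 0.0364, or 0.0848 without control 13.

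The FACIT collagens split, with 5 of 9 higher and 4 lower on average. An unadjusted p under 0.05 was found for 3 of 9, where 7.66% of all genes tested had one, and counts in classes this small are descriptions. Col9a3, a chain of collagen IX, was at 16.8 CPM in controls 3 and 11, 17.0 in control 4 and 18.3 in control 13, and at 15.9 to 22.7 CPM in KO mice (median 19.4), where KO 6 and KO 8 lay within or below the range of the controls. Its log2 fold change was 0.19 ± 0.08 SE (adjusted p = 0.62, edgeR; two-sided exact permutation p = 0.0667). Col9a1, from the same molecule, had 0.71 to 1.27 CPM in controls and 0.925 to 1.33 CPM in KO mice (0.37 ± 0.17 SE, adjusted p = 0.648, edgeR; two-sided exact permutation p = 0.0242), and control 4 stood within the KO range. Without control 3 that permutation p was 0.0667 and the log2 fold change 0.26, without control 4 the log2 fold change was 0.56, and DESeq2 gave an unadjusted p of 0.100. The third chain, Col9a2, was at 11.8 to 16.9 CPM and 11.6 to 20.7 CPM (0.19 ± 0.12 SE). Col19a1, a collagen made by interneurons, was the only collagen with an unadjusted p under 0.05 that was lower in KO mice. It was at 19.03, 21.6, 22.4 and 25.5 CPM in controls 11, 3, 13 and 4 and at 17.4 to 21.4 CPM in KO mice (median 20.3), so that the groups overlapped. The log2 fold change was -0.17 ± 0.08 SE (adjusted p = 0.646, edgeR; two-sided exact permutation p = 0.0747). Control 4, highest for Col19a1, had 923 CPM summed over 10 genes of forebrain excitatory neurons against 156 to 307 CPM in the other animals. Without control 4 the log2 fold change of Col19a1 was -0.09, and the part of that tissue in the difference was not tested. Col16a1 (39.9 to 60.6 CPM in controls, 34.9 to 60.9 CPM in KO mice, log2 fold change -0.10 ± 0.14 SE) and Col14a1 (2.0 to 2.58 and 1.55 to 2.81 CPM, -0.21 ± 0.16 SE) overlapped widely.

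All 4 transmembrane collagens had a higher mean in KO mice under the same 3 scalings, with a median of 0.15 (0.0686 without KO 16, 0.271 without control 4) and 0 with an unadjusted p under 0.05. Col25a1, made by neurons and needed for motor nerves to reach muscle, was the collagen with the most reads, at 89.7 to 114 CPM in controls and 99.0 to 121 CPM in KO mice (log2 fold change 0.07 ± 0.06 SE, 95% interval -0.05 to 0.20, or 0.01 without control 3). Col23a1 was at 5.12 to 6.18 CPM and 4.60 to 8.53 CPM (0.22 ± 0.14 SE).

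In the last class Col8a2 had the largest difference. This chain of the short network collagen VIII was at 1.24 CPM in control 13, 2.0 in control 4, 4.44 in control 3 and 6.4 in control 11, and at 3.13 to 6.96 CPM in KO mice (median 6.64). Controls 13 and 4 lay below every other animal, while control 11 lay among the KO mice. The log2 fold change was 0.71 ± 0.34 SE (adjusted p = 0.656, edgeR), and the exact permutation p (two-sided) was 0.0424. Without control 13 it was 0.44 (permutation p = 0.248) and without control 11 it was 1.17. Its partner Col8a1 was at 6.4 to 7.05 CPM in controls and 5.65 to 8.53 CPM in KO mice (0.13 ± 0.11 SE), and did not follow it over the animals (r = -0.03).

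The genes most like Col8a2 over the 12 animals were genes of motile cilia, among them Zmynd10 (r = 0.98), Cfap53 (0.98) and Cfap126 (0.96). In the DR region such cilia belong to the ependymal cells that line the aqueduct, at whose lower border the piece was cut. A list of 10 ependymal cilia genes, drawn up after these values were seen, summed to 39.4 CPM in control 13, 32.3 in control 4, 71.9 in control 3 and 96.3 in control 11, and to 51.8 to 132 CPM in KO mice (median 101). Foxj1, the master regulator of motile cilia, was at 14.9 CPM in the lowest animal and 35.8 CPM in the highest. Col8a2 and this sum had an r of 0.94 and a rho of 0.98, and an r of 0.94 without controls 13 and 4, the animals farthest from the median of the sum. These are descriptions with no p, because the list was chosen from the values. Col6a1 had an r of 0.52 and a rho of 0.61 with the same sum, and an r of 0.48 without controls 13 and 4. KO 10, KO 14 and KO 7, the KO mice with the most Col6a5, had the highest cilia sums, 132, 127 and 112 CPM. The other KO mice had 51.8 to 111 CPM, and the highest of these, KO 5, had 2.47 CPM of Col6a5. The part of ependymal tissue in the differences of Col8a2, Col6a1 and Col6a5 was not tested.

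**Figure D4:**
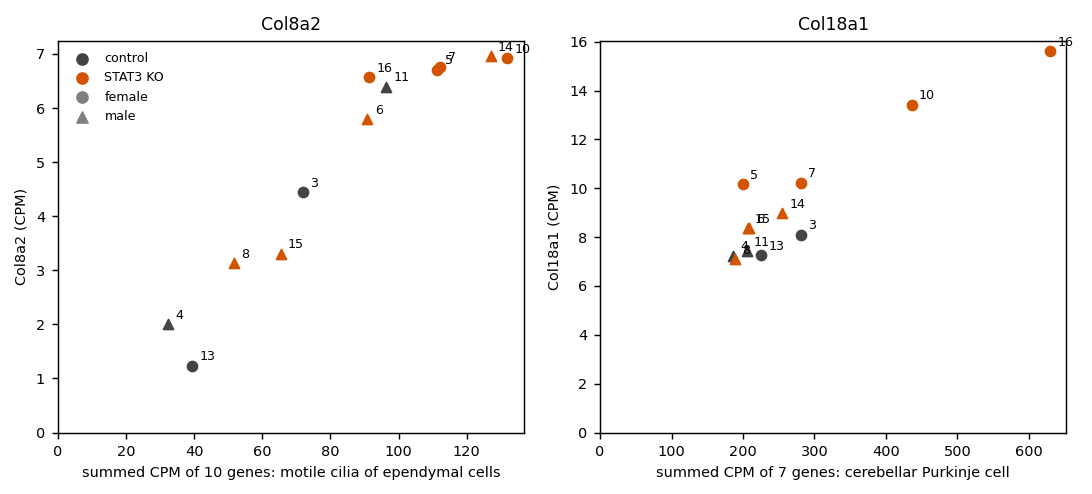
Left, CPM of Col8a2 against the summed CPM of 10 ependymal cilia genes. Right, CPM of Col18a1 against the summed CPM of 7 Purkinje cell genes. Each point is an animal, with its number. Col8a2 climbs with the cilia sum in both genotypes, while KO 10 and KO 16 stand alone at 436 and 630 CPM of Purkinje cell genes.

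Across all 44 collagens the animals differed from one another in a way that did not follow genotype alone. KO 5 and KO 7, both females, were among the 3 highest animals for 24 and 27 of the 44 genes, and KO 8 and control 11, both males, among the 3 lowest for 25 and 24. The mean log2 CPM of an animal's collagens, taken from each gene's mean over 12 animals, was 0.25 in KO 5, 0.24 in KO 7, -0.21 in control 11 and -0.22 in KO 8. The share of reads assigned to no single gene in these 4 animals was 15.8% in KO 5, 15.2% in KO 7, 14.02% in KO 8 and 13.9% in control 11, and Malat1, a nuclear RNA, was at 784, 742, 525 and 536 CPM in the same order. The other animals did not all follow: KO 6, at -0.09 on the collagen scale, had 15.3% of such reads and 689 CPM of Malat1, and KO 14, at 0.02, had 13.95% and 517 CPM. Malat1 was also among the genes most like Col4a1 over the animals (r = 0.94). What part such library properties have in the collagen values was not tested.

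**Figure D5:**
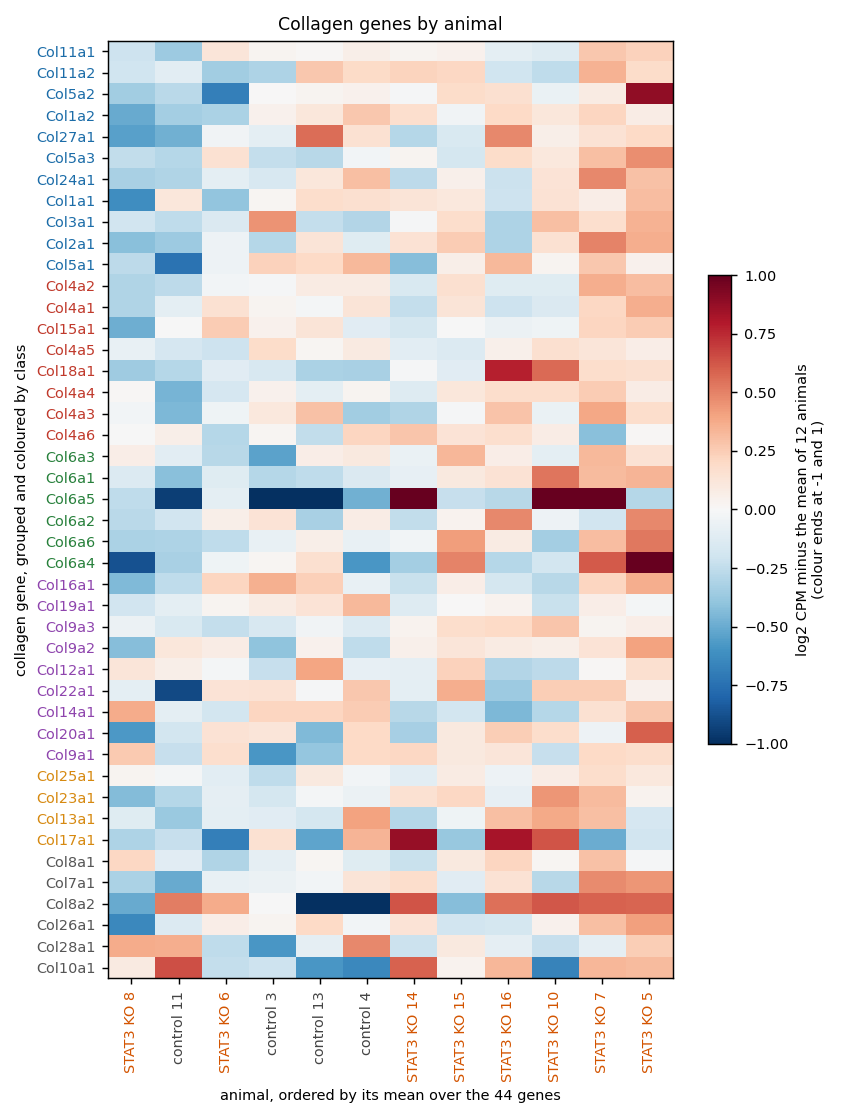
Log2 CPM of 44 collagens (rows, grouped and coloured by class) in 12 animals (columns, ordered by their mean over the 44 genes), each gene centred on its mean over the animals. KO 8 and control 11 are at the low end and KO 7 and KO 5 at the high end, with animals of both genotypes between.

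Several collagens, some with a higher and some with a lower mean in KO mice, were higher in KO females than in KO males. Col6a1 averaged 7.25 CPM in control females and 7.24 CPM in control males, but 11.1 CPM in KO females (9.72 to 12.8 CPM) and 8.44 CPM in KO males (7.99 to 9.41 CPM). Col18a1 averaged 7.68 and 7.34 CPM in control females and males, 12.4 CPM in KO females (10.2 to 15.6 CPM) and 8.20 CPM in KO males (7.09 to 8.97 CPM). For both genes each KO female was above each KO male. KO 10 and KO 16, the animals with the high sums of Purkinje cell genes, are both among the KO females, and the other 2 KO females had 10.2 CPM of Col18a1 each. Tested as a genotype by sex interaction, the log2 fold change in males minus that in females was -0.40 for Col6a1 and -0.52 for Col18a1, with adjusted p = 0.907 and 0.909 (edgeR). Over the 43 collagens 0 had an adjusted p under 0.05 for this interaction, where 0% of all genes had one, and 3 (6.98%) had an unadjusted p under 0.05, against 5.49% of all genes. There were 2 controls of each sex.

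The genes that build, bind and break collagen were then taken as a background to the chains themselves. Of 83 tested genes in 5 further lists, 45 were higher and 38 lower on average, and the median log2 fold change was 0.01. An adjusted p under 0.05 was found for 0 of them and an unadjusted one for 8 (9.64%, near the 7.66% of all genes). The latter count was 4 without control 11 and 10 without KO 15. Among 28 tested genes of collagen synthesis and processing 3 (10.7%) had an unadjusted p under 0.05. P3h4, a member of the prolyl 3-hydroxylase complex, was at 22.6 to 23.9 CPM in controls and 22.2 to 29.0 CPM in KO mice (0.22 ± 0.06 SE). Pcolce, which speeds the trimming of procollagen, was at 2.20 to 3.09 CPM and 2.94 to 4.14 CPM (0.33 ± 0.13 SE), and Tll1, a protease that trims it, at 7.13 to 10.8 CPM and 5.75 to 9.15 CPM (-0.32 ± 0.12 SE). P4hb, the shared subunit of prolyl 4-hydroxylase and among the most counted of the list, was at 148 to 153 CPM and 144 to 152 CPM.

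Among 24 tested genes of the fibrous matrix 4 (16.7%) had an unadjusted p under 0.05, where 7.66% of all genes tested had one. Prelp, a proteoglycan that ties collagen to basement membranes, was at 10.6 to 21.0 CPM in controls and 14.2 to 34.3 CPM in KO mice (0.65 ± 0.21 SE). Sparc, a collagen-binding glycoprotein of astrocytes and vessels, was at 1327 to 1563 CPM and 1456 to 1922 CPM (0.18 ± 0.07 SE), and Dcn, the proteoglycan decorin, at 17.3 to 23.1 CPM and 19.2 to 26.5 CPM (0.20 ± 0.08 SE). Postn, a matrix protein of fibroblasts, was lower on average, at 4.00 to 23.4 CPM and 2.74 to 11.1 CPM (-0.76 ± 0.35 SE), with the highest value in control 3. Of 15 laminins, nidogens and other partners of collagen IV, 0 had an unadjusted p under 0.05, and Lamc1 was at 47.7 to 52.9 CPM and 43.7 to 51.9 CPM. Of 8 collagen receptors 1 did, Itgb1, the integrin subunit that collagen receptors share, at 111 to 116 CPM and 99.5 to 118 CPM (-0.10 ± 0.04 SE). Of 8 proteases and inhibitors of collagen breakdown 0 did, with Mmp2 at 3.59 to 3.78 CPM and 2.95 to 4.45 CPM.

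Markers of the cells that make many of these collagens overlapped between the genotypes. Those of meningeal and perivascular fibroblasts summed to 59.0 to 81.3 CPM in controls and 55.8 to 82.6 CPM in KO mice, with 4 of 10 tested genes higher and 6 lower on average. Endothelial markers summed to 313 to 374 CPM and 289 to 387 CPM, with 3 of 12 higher on average, and 1 of the 9 that were lower, Slco1c1, a transporter of thyroid hormone, had an unadjusted p under 0.05 (59.0 to 67.3 CPM and 53.0 to 68.2 CPM, -0.17 ± 0.06 SE). All 8 pericyte markers were lower on average (7 of 8 without a scaling factor), with a median log2 fold change of -0.14 (203 to 239 CPM in controls, 171 to 235 CPM in KO mice), and 1 of them, Abcc9, had an unadjusted p under 0.05. All 6 markers of vascular smooth muscle were lower on average too, with a median of -0.09 and 0 with an unadjusted p under 0.05. As a description, Col4a5 was the named collagen with the closest relation to the fibroblast markers, with an r of 0.89, a rho of 0.78 and an r of 0.81 without the 2 farthest animals. Choroid plexus markers, led by Ttr, summed to 251 CPM in KO 8 and 246 CPM in KO 16 and to 23.4 to 30.3 CPM elsewhere. With those 2 animals left out, 9 collagens had an unadjusted p under 0.05, where 10.7% of all genes then had one, 0 had an adjusted one, as did 0% of all genes, and Col6a5 had a log2 fold change of 2.22.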

How the data were processed

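The authors deposited raw read counts per gene, 1 table per animal. Per the labels and the study's methods, DR was cut as a piece of 1.5 mm by 1.5 mm from 4 sections of 300 µm, and reads were aligned with STAR 2.5.0b to mm10. The read counter, annotation and strand setting were not given in the sources used here. Reads assigned to no gene or to several (13.9% to 15.8%) were left out of library sizes.

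Genes were filtered with filterByExpr (minimum count 10), scaled by TMM and tested with edgeR 4.0.16 in a quasi-likelihood fit of genotype over 12 animals, with Benjamini-Hochberg adjustment over 15453 genes. Standard errors are the log2 fold change over the square root of F. The 95% intervals take the normal quantile of that error and so are narrower than the quasi-likelihood test implies. For Col8a2 such an interval is 0.04 to 1.38, although edgeR's unadjusted p is 0.0562. Single genes were tested by a two-sided exact permutation of mean log2 CPM (prior count 2). Printed CPM set a count against the library total of all genes times its TMM factor (0.985 to 1.01), and 3 reads are 0.101 to 0.123 CPM before that factor. Alternatives used DESeq2 1.42.0, limma 3.58.1 (voom), other scalings and filters, sex as a covariate and omitted animals. The tests were checked on simulated data. No 2 libraries agreed within sampling noise (chi-square per gene 5.24 to 29.1 over 66 pairs).

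Members and gene lists were chosen with earlier results of these data known. The cilia and Purkinje cell lists, and the omission of KO 10 with KO 16, were added after the values were seen. Named collagens are those with an unadjusted p under 0.05 or groups that do not overlap, the 3 with the highest CPM and the extremes of log2 fold change in each class; in other lists, the 3 smallest p and 2 highest CPM, of which examples are printed. All 44 members matched GENCODE vM21 by symbol, and 13 share under 10% of their exon bases with another gene.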

Additional observations from a re-analysis of the deposited data

Results flagged for a closer look

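For each collagen the highest and lowest animal of each genotype was compared with the rest of its group by Dixon's ratio, the gap to the nearest animal over the range of the group, both in log2 CPM (prior count 2). A ratio above the 95% critical value was found in 9 of 88 groups, where chance gives about 1 in 20, or 4.4. In 4 of the 9 the animal was control 11, which was low for Col5a1 (2.35 CPM against 4.57 to 4.98 in the other controls, ratio 0.886), Col11a1 (45.5 against 59.1 to 61.0 CPM, 0.887), Col5a2 (10.1 against 12.1 to 12.5 CPM, 0.875) and Col14a1 (2.0 against 2.5 to 2.58 CPM, 0.878). Control 3 was high for Col3a1, with 6.42 CPM against 3.82 to 3.96 (0.931). Control 4 was high for Col5a3, with 7.42 CPM against 6.20 to 6.39 (0.837), and control 13 for Col9a3, with 18.3 CPM against 16.8 to 17.0 (0.835). Among KO mice, KO 10 was low for Col9a1, with 0.925 CPM against 1.18 to 1.33 (0.669), and KO 8 for Col9a2, with 11.6 CPM against 16.2 to 20.7 (0.578).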

How the results depend on the processing

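The count of collagens with an adjusted p under 0.05 was 0 in each of 22 alternatives, and 0 for the genotype by sex interaction in each of 15. The collagens with an unadjusted p under 0.05 numbered 5 to 9, and those with a log2 fold change above 0 numbered 25 (without control 11) to 35 (without control 13). With animals left out in turn, genes of the 5 other matrix lists with an unadjusted p under 0.05 numbered 4 (without control 11) to 10, and the median log2 fold change ran from -0.0529 (without control 11) to 0.166 for the FACIT class, -0.0522 (without KO 7) to 0.0830 for the fibrillar, -0.00260 (without KO 5) to 0.0773 for the basement membrane, 0.160 (without KO 5) to 0.356 for the collagen VI, 0.0686 (without KO 16) to 0.271 (without control 4) for the transmembrane and 0.0733 (without control 11) to 0.174 for the last class. Of 26 named collagens, 17 kept the direction of their log2 fold change in every alternative and 9 did not. With animals left out in turn these ranged from -0.0257 (without KO 5) to 0.22 for Col5a2, -0.00741 to 0.290 for Col13a1, -0.105 to 0.0830 for Col11a2, -0.0414 to 0.0589 for Col15a1, -0.188 to 0.00926 for Col16a1, -0.286 to 0.0541 for Col28a1, -0.0576 to 0.0435 for Col4a1, -0.0151 to 0.0956 for Col4a2 and -0.109 to 0.00530 for Col4a5. Col4a1 was at -0.00168 with voom and sample quality weights and at -0.00167 with sex as a covariate. Without a scaling factor Col11a2 was at 0.0121 and Col15a1 at 0.0215, and Col15a1 was at 0.00126 with every gene of at least 1 count and at 0.00213 with genes of at least 10 counts in every library. With KO 8 and KO 16 left out, Col11a2 was at 0.0604 and Col15a1 at 0.0825. With KO 10 and KO 16 left out, Col13a1 was at -0.0241, Col11a2 at 0.0661 and Col15a1 at 0.0214. Of the others, Col25a1 was at 0.0119 without control 3 and Col1a1 at -0.0799 without KO 8. The two-sided exact permutation p stayed under 0.05 with each animal left out for Col6a1 (0.00909 to 0.0364) and Col6a5 (0.0121 to 0.0364), and ran from 0.0152 to 0.0848 for Col5a3, 0.00606 to 0.0667 for Col9a1, 0.0182 to 0.248 (without control 13) for Col8a2, 0.0303 (without KO 8) to 0.103 for Col18a1, 0.0121 (without control 11) to 0.285 for Col19a1, 0.0424 (without KO 8) to 0.37 for Col23a1 and 0.0152 (without KO 6) to 0.133 for Col9a3. The cause was not tested for these changes. KO and control mice were littermates, but the labels used here give no litter, so that no analysis paired by litter was possible. The p-values measure the spread between these animals.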
